A study of Homo sapiens with 15 samples.

Results

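The DNA methylation of 3 clonal HCT116 populations was compared between clones at each of 3 stages. HCT116 is a human colorectal carcinoma line, and the clones, Cl.3, Cl.6 and Cl.9, were each grown from a single cell carrying a doxycycline-inducible shRNA against the 3′UTR of UHRF1. The libraries were chosen by their titles, and the 9 clone libraries are part of 15 libraries in the series, with 1 library per clone and stage. Baseline cells grew 14 days without doxycycline, Knockdown cells grew 14 days with 10 ng/mL doxycycline, and Recovery cells had doxycycline for 14 days and were then grown without it until day 28. The other 6 libraries come from 2 uncloned populations, R1 and R2, with an inducible shRNA against DNMT1 and the same schedule, and they served here as a pair of populations measured in the same way. Each clone is 1 culture, no library was repeated, and UHRF1 RNA and protein were not measured in these libraries. The values below are therefore descriptions without tests, and their intervals cover counting error only. The intervals treat the CpGs covered by a read as independent, so they are too narrow even for counting error.

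UHRF1 binds hemimethylated CpGs behind the replication fork and recruits DNMT1, which copies the methyl group to the new strand. Where copying is incomplete, a site loses methylation with each division, and the pattern of one founder cell is passed on with its own errors to all of its descendants. Cultured cancer cells carry partially methylated domains (PMDs), long stretches that replicate late and have intermediate levels, and highly methylated domains (HMDs), which hold most active genes. Clones of one line can therefore differ already before an experiment starts.

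The level of a region, mC, was its methylated reads divided by all its reads, over CpGs with at least 5 reads in all 9 libraries, and differences are given in percentage points. Windows were 10 kb tiles, of which 274704 of 303114 (90.6%) on chromosomes 1 to 22 and X held enough CpGs and reads. Promoters ran from 1 kb upstream to 100 bp downstream of the start of protein-coding genes, and 17352 of 19962 (86.9%) were measured. The start was the outermost annotated 5′ end of the gene, and which start these cells use was not measured. The range of a region was the highest minus the lowest of the 3 clones at one stage, and a range of 20 points or more was called.

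Cl.3, Cl.6 and Cl.9 libraries held 315707627 to 589607012 reads summed over CpGs, where a read is counted at each CpG it covers. The median CpG was read 20 or 21 times in Cl.9 and 11 to 13 times in the other clones. Cl.9 was also deposited in a table of its own, while Cl.3 and Cl.6 shared one, so the clone, the table and the depth cannot be told apart for Cl.9. Over all CpGs, mC at Baseline was 74.9% in Cl.3, 76.5% in Cl.6 and 71.7% in Cl.9. At Knockdown it was 62.5%, 57.3% and 42.8%, and at Recovery 68.0%, 66.4% and 53.2%, in the same order of clones. For UHRF1, the targeted gene, the region at the outermost annotated start was at 93.5%, 92.3% and 91.6% at Baseline. It was at 79.4%, 76.4% and 66.8% at Knockdown and at 88.0%, 86.0% and 79.9% at Recovery. Whether these cells use that start was not tested, so these are not levels of a promoter known to be active.

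Short stretches of promoters that set 1 clone apart are shown first, to give the CpGs on which such differences were read. Each is the run of 30 bases upstream of the start with the most CpGs measured in all 9 libraries, read 5′ to 3′ along the gene from hg38, with its CpGs in capitals. NXPE1 was highest in Cl.3 (chr11:114560327-114560356, minus strand) and ANXA2R in Cl.9 (chr5:43043281-43043310, minus), while SPAG8 was lowest in Cl.9 (chr9:35812292-35812321, minus).
NXPE1: CGaggttgcagtgagctatgatcaCGccac
ANXA2R: CGccaCGcctttgtcagCGttatCGgaCGc
SPAG8: CGgaatgcCGcCGggacCGgaaagCGgacc
On the 5 CpGs of the ANXA2R stretch, mC at Baseline was 0% in Cl.3, 1.67% in Cl.6 and 53.4% in Cl.9, and at Recovery 0%, 0% and 54.5%. The Baseline values rest on 48, 60 and 58 reads summed over the 5 CpGs. A read covering several of them was counted at each, so the number of separate reads is smaller. On the 5 CpGs of the SPAG8 stretch it was 100%, 100% and 31.6% at Baseline and 95.3%, 97.6% and 36.1% at Recovery. The 2 CpGs of the NXPE1 stretch were at 96.7%, 5.26% and 2.86% at Baseline and at 100%, 0% and 0% at Recovery. The stretches chosen in the same way for SCN1A and ENSG00000289761 held 1 CpG each and are not shown. In Cl.3, Cl.6 and Cl.9 the SCN1A stretch was at 0%, 33.3% and 75% at Baseline, 0%, 0% and 15.8% at Knockdown and 5.26%, 37.5% and 26.7% at Recovery. The ENSG00000289761 stretch went from 33.3%, 0% and 47.4% at Baseline to 13.3%, 0% and 5.41% at Recovery, so it did not keep the difference. Except for SPAG8, each promoter was the one of its class with the largest smallest gap over the 3 stages. That NXPE1 and ANXA2R kept the difference therefore partly follows from the choice. No repeat annotation was used here, and the handling of reads that match several places was not given in the sources used here.

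The question asked first was how far apart the clones stood before UHRF1 was depleted. At Baseline, 12105 windows had a range of at least 20 points (4.41%), with a median range over all windows of 5.24 points and a largest range of 76.7 points. R1 and R2 differed by that much in 2 of 277697 windows (0.00072%), with a median difference of 1.05 points. Among promoters the clones had a range of 20 points or more at 1078 (6.21%), with a median range of 6.13 points, against 16 of 18146 (0.0882%) between R1 and R2. The clones were thus set apart at many more windows and promoters than the 2 uncloned populations, although 3 libraries allow a larger range than 2, and R1 and R2 carry another shRNA.

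As measured, the ranges were wider later, and this depended on the library-wide levels and on Cl.9. At Knockdown, 150089 windows (54.6%) and 4798 promoters (27.7%) were called, against 0.00144% of windows and 0.187% of promoters between R1 and R2. At Recovery, 59737 windows (21.7%) and 3128 promoters (18%) were called, against 0.00108% and 0.0992%. The library-wide levels given above moved apart over the same stages. With each library's own median subtracted, the share of windows with a range of 20 points was 3.70% at Baseline, 4.35% at Knockdown and 5.65% at Recovery, and that of promoters 4.97%, 10.3% and 6.50%. With the median of regions of like Baseline level subtracted instead, chosen after seeing the data, the shares were 3.72%, 3.62% and 5.61% of windows and 4.90%, 3.39% and 4.26% of promoters, so on that scale neither windows at Knockdown nor promoters at either later stage were called more often than at Baseline. Without Cl.9, whose mC fell furthest, the range of the remaining pair reached 20 points in 1.49%, 1.45% and 2.04% of windows and in 1.68%, 2.16% and 1.30% of promoters.

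**Figure D1:**
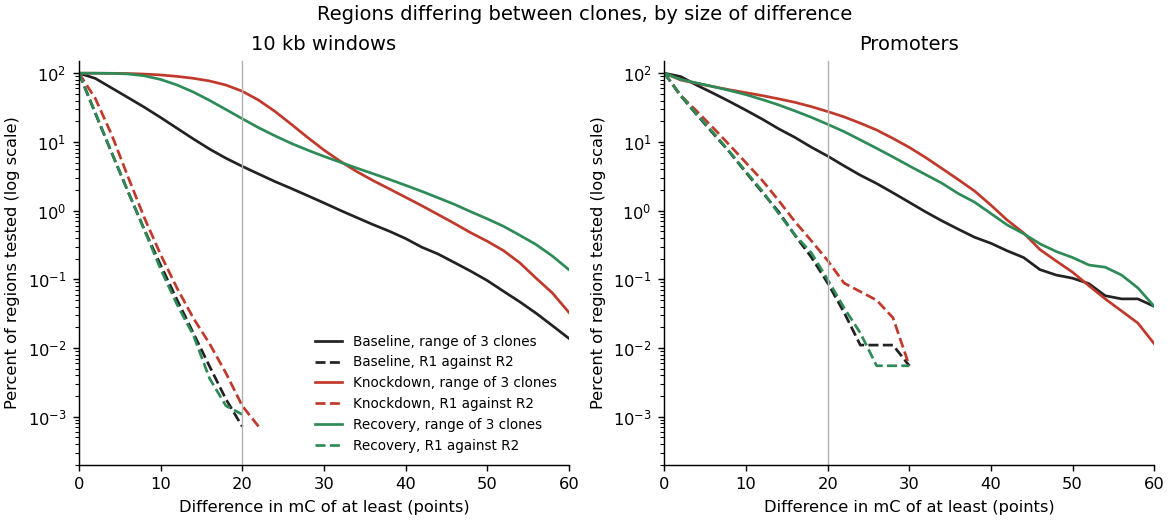
Percent of regions (log scale) whose difference in mC was at least the value on the x axis, in points, for the range of the 3 clones (solid) and for R1 against R2 (dashed) at each stage, in windows (left) and promoters (right). At 20 points, marked by the grey line, the clones were at 4.41%, 54.6% and 21.7% of windows at Baseline, Knockdown and Recovery, and R1 against R2 at 0.00144% or less.

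Taken pair by pair, Cl.3 and Cl.6 were closest at Baseline. Their median absolute difference was 2.00 points over windows, against 3.26 for Cl.3 and Cl.9 and 4.06 for Cl.6 and Cl.9, which share Cl.9. Cl.3 was higher than Cl.6 by 20 points in 1034 windows and lower in 3053. Cl.9 was lower than Cl.3 in 3814 windows and higher in 2901, and it was lower than Cl.6 in 5622 and higher in 1472. At Baseline each clone was therefore both above and below each other clone in many windows. At Knockdown this was no longer so for Cl.9, which was lower than Cl.3 by 20 points in 144215 windows and higher in 183, and lower than Cl.6 in 46164 and higher in 148.

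The windows called at Baseline lay in the part of the genome with intermediate levels. Of them, 37.2% had a mean Baseline mC of 40 to 60% and 41.5% of 60 to 80%, where 14.1% and 14.4% of tested windows lay. The share called was 9.23% in windows with fewer than 5 CpGs per kb, 5.37% with 5 to 10, 0.927% with 10 to 20 and 0.404% with 20 to 40. It was 0.0754% (116 of 153767) where HMDs took up most of the window in all 3 clones, and 22.9% where that held in 1 clone only. For PMDs the share was 0.794% where no clone had most of the window in PMDs and 10.9%, 9.83% and 9.61% where 1, 2 or 3 clones did. Windows that lay in PMDs in every clone were thus called about as often as those that did so in 1. HMDs are defined in part by a high level, so the low share in shared HMDs partly follows from their definition. Chromosome X had 15.0% of its windows called, against 3.93% for the autosomes.

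The next question was which Baseline differences persisted. A difference counted as kept when the clone that was highest at Baseline still exceeded the one that was lowest by at least 20 points. Of the 12105 windows, 7340 (60.6%) kept the difference at Knockdown and 8552 (70.6%) at Recovery. Both later stages kept it in 7102 windows (58.7%), Recovery alone in 1450 (12.0%), Knockdown alone in 238 (1.97%) and neither in 3315 (27.4%). The direction persisted more often than the size, in 93.9% of windows at Knockdown and 96.4% at Recovery, and 3 and 2 windows differed by 20 points the other way. Over all windows tested the same order was found in 85.4% and 88.7%, and in windows with a Baseline range under 5 points in 80.2% and 84.2%, which are the shares to read this direction against. Windows with a Baseline range under 5 points reached 20 points in the direction of their Baseline order in 21.1% at Knockdown and 3.79% at Recovery, and all windows tested in 27.2% and 15.9%, which are the levels to read the kept shares against.

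The kept share followed the size of the Baseline difference, an order that the fixed limit of 20 points largely sets, since a larger difference can shrink further and still count. The kept share at Recovery was 64.4% for ranges of 20 to 30 points, 82.7% for 30 to 40 and 92.4% for over 40, and at Knockdown it was 54.8%, 70.5% and 84.5%. For windows over 40 points at Baseline the median difference was 45.2 points, then 39.6 at Knockdown and 47.4 at Recovery. At Recovery these windows stood about as far apart as at Baseline.

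Promoter differences were kept less often than those of 10 kb windows, which are larger and had higher minimums of CpGs and reads. Windows of 2 kb kept 51.4% at Knockdown and 57.6% at Recovery, and windows of 100 kb kept 70.2% and 81.9%. The contrast with promoters is thus not one at equal region size. Of 1078 promoters, 440 (40.8%) kept the difference at Knockdown, 477 (44.2%) at Recovery and 368 (34.1%) at both, while 529 (49.1%) kept it at neither. The shares at Knockdown and Recovery were 25.1% and 30.7% with library medians subtracted, 21.7% and 29.1% against promoters of like Baseline level, and 24.1% and 23% without Cl.9. Promoters with a Baseline range under 5 points reached 20 points in that direction in 8.00% and 3.05%, and all promoters in 14.1% and 10.7%. By size, 39.8% of promoter ranges of 20 to 30 points, 55.0% of 30 to 40 and 77.6% of over 40 were kept at Recovery. Promoters with a mean Baseline mC of 20 to 40% kept 19.1% at Recovery, against 42.8%, 60.8% and 71.7% for those at 40 to 60%, 60 to 80% and over 80%. Called promoters with 10 to 20 CpGs per kb kept 58.1%, and those with over 80 kept 21.2%. How often all promoters of a given level or density reached 20 points in their Baseline order was not measured. These orders by level and density therefore have no background and are not orders of persistence.

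Cl.3 and Cl.6, the pair from one table and of like depth, gave the plainest view of persistence. Across all 274704 windows the Cl.3 minus Cl.6 difference at Baseline correlated with that at Knockdown with a Pearson r of 0.74 and at Recovery of 0.76. For Cl.3 minus Cl.9 r was 0.49 and 0.66, and for Cl.6 minus Cl.9 0.50 and 0.62. Across promoters r lay between 0.35 and 0.46 for the 6 values. These are descriptions across regions, in which neighbours are not independent and the 3 pairs share clones. Cl.3 above Cl.6 was kept in 84.5% of 1034 windows at Knockdown and 82.2% at Recovery. Cl.6 above Cl.3 was kept in 47.5% of 3053 windows at Knockdown and 77.3% at Recovery, so it returned in many windows where it had been under 20 points. Cl.6 lost more than Cl.3 at Knockdown, by a median of 19.2 against 12.5 points, and regained more, by 9.78 against 5.46 points.

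**Figure D2:**
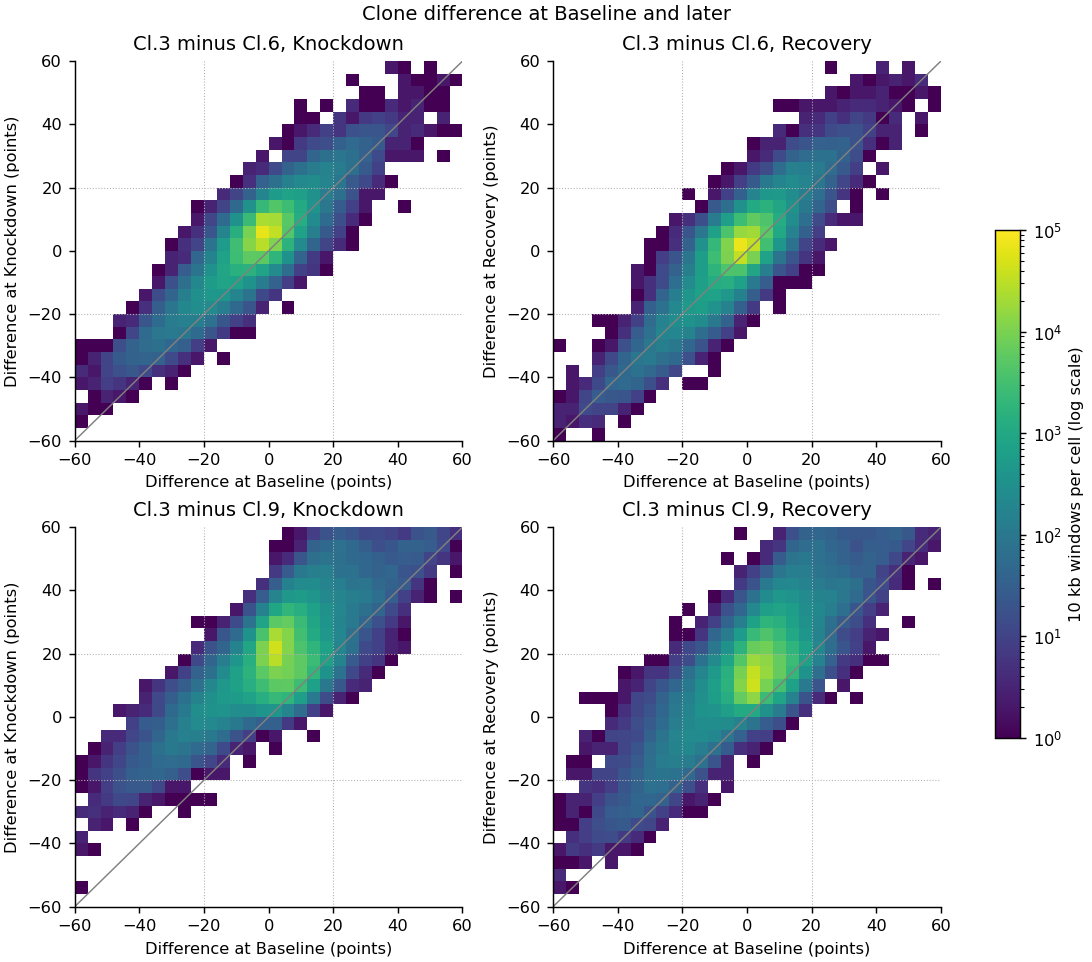
Number of 10 kb windows (colour, log scale) by their difference between 2 clones at Baseline (x axis, points) and at Knockdown or Recovery (y axis, points), for Cl.3 minus Cl.6 (top) and Cl.3 minus Cl.9 (bottom). The grey diagonal marks an unchanged difference and dotted lines mark 20 points. The bulk of windows lies at 5.73 and 1.55 points for Cl.3 minus Cl.6 and at 20.4 and 13.6 points for Cl.3 minus Cl.9 (medians at Knockdown and Recovery). The Cl.9-higher tail left the diagonal, from a median of 26.4 points at Baseline to 4.06 and 12.3 points.

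Read backwards, few late window differences between Cl.3 and Cl.6 lacked a Baseline difference. Of the 3464 windows where Cl.6 exceeded Cl.3 by 20 points at Recovery, 68.2% already did at Baseline, 29% had differed by 10 to 20 points, and 13 windows had differed by less than 5. Of the 2134 windows where Cl.3 exceeded Cl.6 at Recovery, 39.8% already did, 46.5% had differed by 10 to 20 points and 61 windows by less than 5. Over all windows Cl.6 exceeded Cl.3 by 20 points at Baseline in 1.11% and Cl.3 exceeded Cl.6 in 0.376%. Promoters where Cl.3 was the higher clone had less often differed before. Of the 173 promoters where Cl.3 exceeded Cl.6 at Recovery, 26.6% already did at Baseline and 23.1% had differed by less than 5 points, and of the 340 at Knockdown these shares were 14.4% and 31.2%. Where Cl.6 exceeded Cl.3, 40.4% of 52 promoters already did at Baseline and 7.69% had differed by less than 5 points at Recovery, and 60% of 35 already did at Knockdown. Over all promoters Cl.3 exceeded Cl.6 by 20 points at Baseline in 0.772% and Cl.6 exceeded Cl.3 in 0.905%. Their median absolute difference was 3.22 points. Differences with Cl.9 had more often been small at Baseline. At Recovery, 34.7% of the 48569 windows where Cl.3 exceeded Cl.9 and 18.2% of the 34679 where Cl.6 did had differed by less than 5 points at Baseline, and 7.20% and 13.5% already by 20. At Knockdown the share under 5 points was 31.8% for Cl.6 over Cl.9. Of the 144215 windows where Cl.3 exceeded Cl.9 at Knockdown, 2.41% already did at Baseline and 69.0% had differed by less than 5 points. Over all windows Cl.3 exceeded Cl.9 by 20 points at Baseline in 1.39% and Cl.6 exceeded Cl.9 in 2.05%. The median absolute differences with Cl.9 were 3.26 (Cl.3) and 4.06 points (Cl.6), so most windows of any kind differed by less than 5. The 69.0% is thus not shown to set those windows apart. The few windows where Cl.9 stayed above Cl.3 at Knockdown, 183, had nearly all been above it at Baseline (99.5%), by a median of 44.3 points.

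The windows were then sorted by the clone that stood 20 points from both others at Baseline. This gave 610 Cl.3-high windows (0.222%), 1101 Cl.3-low (0.401%), 1068 Cl.6-high (0.389%), 156 Cl.6-low (0.0568%), 988 Cl.9-high (0.36%) and 1868 Cl.9-low windows (0.68%), 5655 in all, of which 136 belonged to a high and a low class. The median gap to the nearer of the other clones was 24.0 to 25.9 points in every class, a narrow span that the limit of 20 points largely sets.

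The classes ended differently. Cl.3-high windows stayed 20 points above both other clones in 88.5% at Knockdown and 85.9% at Recovery, and Cl.9-low windows stayed as far below in 85.3% and 88.5%. Cl.6-high windows did so in 48.3% and 77.2% and Cl.3-low windows in 9.36% and 41.0%. Cl.6-low windows kept 8.97% and 16.7%, and Cl.9-high windows 6.07% and 18.1%. Over all windows tested the same position held at Recovery for 0.653% (Cl.3 above), 0.183% (Cl.3 below), 0.799% (Cl.6 above), 0.0299% (Cl.6 below), 0.0677% (Cl.9 above) and 9.32% (Cl.9 below). At Knockdown these shares were 0.794%, 0.0382%, 0.375%, 0.0120%, 0.0218% and 15.0%, in the same order. High methylation in Cl.3 and low methylation in Cl.9 were thus, on levels as measured, the positions kept most often, and they are also the positions towards which the whole libraries moved at Knockdown.

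In Cl.9-high windows the median mC of Cl.9 was 78.1% at Baseline against 45.1% in Cl.3 and 45.8% in Cl.6. At Knockdown it was 39.3% against 33.0% and 27.6%, and at Recovery 49.4% against 36.4% and 32.7%. Cl.9 was still the highest of the 3 in 66.8% of these windows at Knockdown and in 77.9% at Recovery, where over all windows it was highest in 0.441% and 0.801%. In Cl.9-low windows Cl.9 went from 42.4% to 15.7% and 18.3%, while Cl.3 went from 74.7% to 58.4% and 64.1%. The median gap of this class widened from 24.6 points to 33.5 and 37.4.

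In Cl.3-high windows Cl.3 was at 71.7%, 59.6% and 67% at the 3 stages, Cl.6 at 43.4%, 28.2% and 36.0% and Cl.9 at 31.3%, 12.3% and 14.5%. The gap to the nearer clone was 24.7, 28.9 and 28.4 points. In Cl.3-low windows Cl.3 was at 45.0%, 32.5% and 35.3%, Cl.6 at 77.6%, 59.0% and 70.3% and Cl.9 at 76.9%, 43.0% and 57.3%. There the gap was 7.65 points at Knockdown, where Cl.9 had come closer to Cl.3, and 16.9 points at Recovery. In Cl.6-high windows Cl.6 was at 72.4%, 52.2% and 63.0% with Cl.3 at 42.1%, 30.3% and 33.5%, and the gap was 24.3, 19.6 and 26.7 points.

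**Figure D3:**
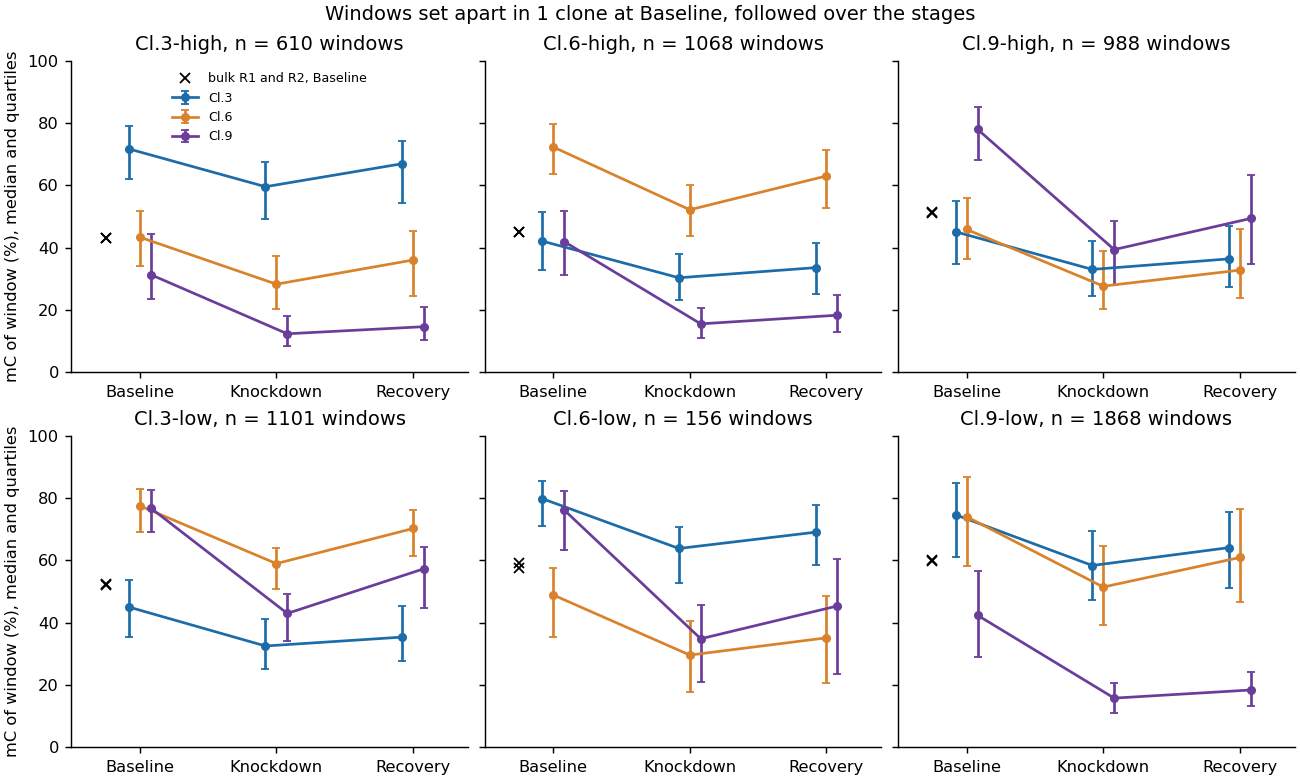
Median mC (y axis, %) of each clone at the 3 stages in the windows of each class, with lower and upper quartiles as bars, and the medians of R1 and R2 at Baseline as crosses. Cl.9 fell from 78.1% to 39.3% in Cl.9-high windows, close to the other clones, while the clones stayed apart in the Cl.3-high, Cl.6-high and Cl.9-low panels.

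Because the clones lost methylation to unlike degrees, the gaps were also measured against windows that had started at a like level. The median over windows in the same 5-point bin of mean Baseline mC was subtracted in each library, a comparison chosen after the values above had been seen. The median gap of Cl.9-high windows was 31.3 points at Baseline, 20.8 at Knockdown and 26.2 at Recovery, and that of Cl.9-low windows 19.8, 16.5 and 20.3 points. Cl.3-high windows had 24.3, 22.4 and 23.7 points, Cl.3-low 27.0, 24.4 and 28.9, Cl.6-high 20.6, 20.4 and 26.1 and Cl.6-low 27.9, 16.2 and 19.7. Relative to windows of like starting level, then, both the high and the low classes still stood apart at Recovery by at least 19.7 points in the median. Shares at 20 points or more were 81.7% in Cl.3-low, 74.0% in Cl.6-high and 68.7% in Cl.3-high windows. They were 67.8% in Cl.9-high, 51.7% in Cl.9-low and 49.4% in Cl.6-low, against 0.113 to 0.988% of all windows. This order differs from that on levels as measured. At Baseline the shares already ran from 48.4% (Cl.9-low) to 100% (Cl.6-low and Cl.9-high), so they give no order of persistence. Promoter classes stood apart by medians of 6.0 to 18.2 points at Recovery on this scale.

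R1 and R2 did not stand with the odd clone in most classes. In Cl.6-high windows the medians of R1 and R2 at Baseline were 45.1% and 44.9%, near Cl.3 (42.1%) and Cl.9 (41.9%), and in Cl.9-high windows they were 51.2% and 51.4%. The uncloned populations were nearer to the single clone than to the mean of the other 2 in 3.46% of Cl.6-high, 4.26% of Cl.3-high and 5.47% of Cl.9-high windows. For Cl.3-low windows they were nearer to Cl.3 in 87.2%, for Cl.6-low to Cl.6 in 67.9% and for Cl.9-low to Cl.9 in 23.6%. In all 6 classes the median of both lay between the medians of the clones, so a clone that was high in a class exceeded the mixed populations.

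Both kinds of CpG took part. Low-density CpGs, whose nearest CpG is at least 20 bp away, had a median gap of 25.3 to 28.3 points at Baseline in the 6 classes, and the high-density CpGs had 13.2 to 18.9 points. The windows were chosen by a 20-point gap at Baseline, and a median of 74.1 to 77.4% of their CpGs were low-density. The low-density gap at Baseline therefore largely follows from the choice. High-density CpGs could be measured in only part of the windows, such as 416 of 610 Cl.3-high and 97 of 156 Cl.6-low, so the medians are not over the same windows. At Recovery the low-density gap was 37.4 points in Cl.9-low, 29.9 in Cl.3-high, 28.5 in Cl.6-high, 18.3 in Cl.3-low, 10.3 in Cl.9-high and 6.96 in Cl.6-low windows. The high-density gap at Recovery was 36.8, 23.5, 19.9, 12.8, 5.83 and 12.4 points in the same order.

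The class windows were not spread evenly. Cl.3-high windows were 27.7% on chromosome 7, 21.3% on X and 20.0% on chromosome 6, which hold 5.51%, 4.25% and 6.09% of tested windows. Cl.3-low windows were 26.2% on chromosome 2 (8.46% of tested windows), Cl.9-low windows 19.5% on chromosome 1 (7.93%), and Cl.6-low windows 41.0% on X (4.25%). Many windows of a class are neighbours, so these counts are not of independent windows. Of the windows in a class, 38.0% (Cl.3-high) to 59.5% (Cl.9-high) lay in runs of at least 5 windows with at most 1 missing between neighbours, except Cl.6-low with 10.9%. Over windows, the median relative depth of the clone in its class was 0.937 to 1.08 times the median of the 3 clones. Over promoters it was 0.84 for Cl.9-high and 0.973 to 1.05 for the other classes.

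The longest run was Cl.9-low, 1170 kb on chromosome 1 (81970001 to 83140000) over ADGRL2, an adhesion G protein-coupled receptor of the latrophilin family. Its 117 windows were at 60.7%, 63.2% and 28.8% in Cl.3, Cl.6 and Cl.9 at Baseline, at 50.2%, 45.6% and 12.1% at Knockdown and at 54.3%, 53.1% and 14.5% at Recovery. Cl.9 was 20 points below both others in 114 of them at Baseline and in all 117 at both later stages. PMDs covered 100% of the run in Cl.3 and Cl.6 and 13.8% in Cl.9, although Cl.9 was the lowest. R1 and R2 were at 49.6% and 49.8%.

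The longest Cl.3-high run was 780 kb on chromosome 7 (8450001 to 9230000) over NXPH1, a secreted ligand of neurexins. It was at 71%, 42.5% and 27.4% in Cl.3, Cl.6 and Cl.9 at Baseline and at 68.7%, 37.1% and 13.6% at Recovery, and Cl.3 was 20 points above both in 72 of 78 windows at Baseline and in 76 at Recovery. The next run of the class, 500 kb from 9460001 to 9960000, lay next to it on the chromosome and held no protein-coding gene. The 2 longest Cl.3-low runs were 860 kb on chromosome 2 (198310001 to 199170000) over PLCL1 and 850 kb on chromosome 1 (69260001 to 70110000) over LRRC7, a postsynaptic scaffold protein. At PLCL1, Cl.3 was at 49.1%, 34.0% and 37.9% at the 3 stages, Cl.6 at 79.3%, 60.4% and 72.2% and Cl.9 at 82.4%, 47.7% and 62.2%, and 80, 15 and 65 of 86 windows met the class rule. At LRRC7 the counts were 79, 36 and 69 of 85 windows.

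The longest Cl.6-high run was 440 kb on chromosome 3 (117540001 to 117980000) without a protein-coding gene, at 37.3%, 66.1% and 32.0% at Baseline and at 29.5%, 55.4% and 14.5% at Recovery. The relative depth of Cl.6 was 0.57 times the median of the clones in this run, and its part in the level was not tested. The second, 430 kb on chromosome 9 (105920001 to 106350000), had a relative depth of 1 in Cl.6 and levels of 43.9%, 75.5% and 43.5% at Baseline and 34.6%, 68.3% and 18.6% at Recovery.

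Cl.9-high runs ended in unlike ways. The longest, 650 kb on chromosome 6 (23110001 to 23760000), was at 46.8%, 46.3% and 74.6% at Baseline, at 38.2%, 32.3% and 33.3% at Knockdown and at 47.2%, 41.8% and 39.8% at Recovery, so that none of its 65 windows met the class rule at either later stage. The second, 620 kb on chromosome 14 (97460001 to 98080000), was at 79.9% in Cl.9 at Baseline against 41.8% and 40.3%, and at 47.2% against 32.9% and 26.7% at Recovery, when 20 of 62 windows met the rule. The 2 longest Cl.6-low runs, 110 and 70 kb, had no window left in the class at Knockdown or Recovery.

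**Figure D4:**
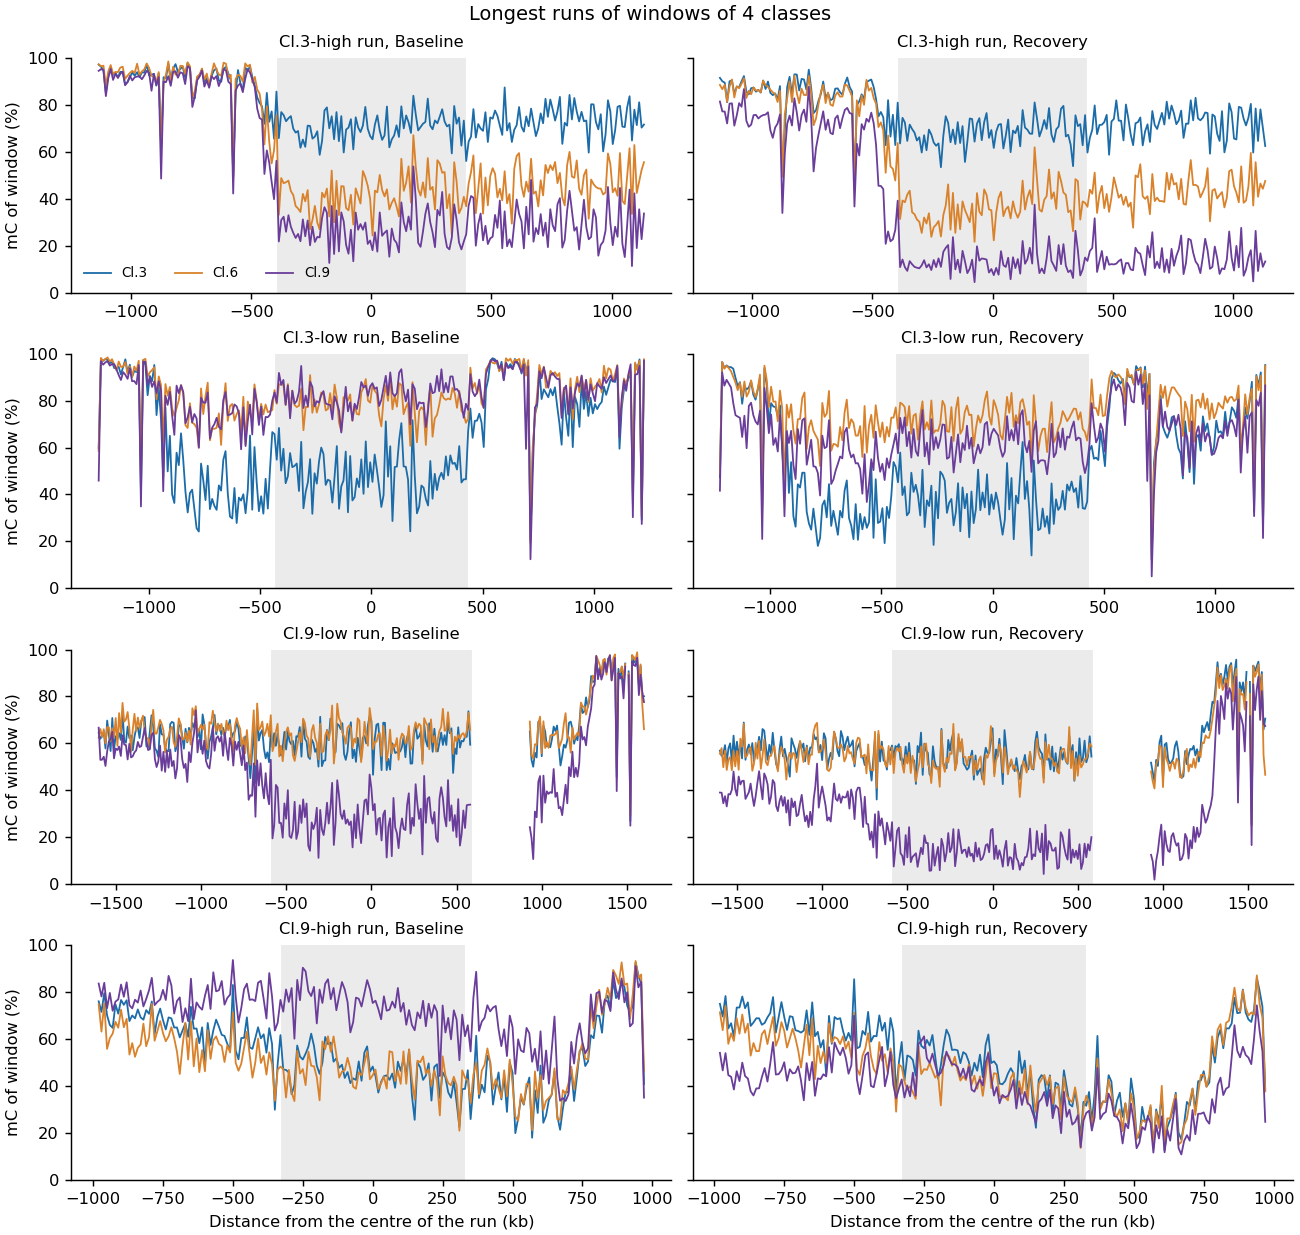
mC of 10 kb windows (y axis, %) in Cl.3, Cl.6 and Cl.9 along the longest run (grey) of the Cl.3-high, Cl.3-low, Cl.9-low and Cl.9-high classes by distance from its centre (x axis, kb), at Baseline (left) and Recovery (right), with gaps where windows were not tested. Cl.9 stayed below both others across its 1170 kb run, while the 3 clones lay at 39.8 to 47.2% over the Cl.9-high run at Recovery.

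Single promoters set apart in 1 clone were few, with 41 Cl.3-high (0.236%), 28 Cl.3-low (0.161%), 63 Cl.6-high (0.363%), 42 Cl.6-low (0.242%), 73 Cl.9-high (0.421%) and 159 Cl.9-low promoters (0.916%), 403 in all. They kept the position at Recovery in 26.8%, 3.57%, 14.3%, 19%, 26.0% and 67.3%, in the same order. Over all promoters the same position held at Recovery for 0.674%, 0.00576%, 0.231%, 0.104%, 0.127% and 7.04%. Against promoters of like Baseline level, 14.6%, 28.6%, 17.5%, 38.1%, 43.8% and 17.6% stood 20 points apart at Recovery, against 0.161 to 0.484% of all promoters. On that scale 70.7%, 78.6%, 42.9%, 100%, 100% and 39.6% had done so at Baseline, so the classes did not start alike and their shares at Recovery give no order of persistence. By the 20-point rule, 3 of 73 Cl.9-high promoters (4.11%), 3 of 28 Cl.3-low (10.7%) and 8 of 159 Cl.9-low (5.03%) lay in a window of their own class, where 0.36%, 0.401% and 0.68% of all windows belonged to it. Smaller shifts of the surrounding windows were not measured. The genes below are the 4 with the largest gap in each class and the one whose smallest gap over the stages was largest.

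Among Cl.9-high promoters, ANXA2R (annexin A2 receptor) held its difference at every stage. Its promoter (chr5:43043070-43044170) was at 11.6%, 10.0% and 71.2% in Cl.3, Cl.6 and Cl.9 at Baseline, at 4.2%, 4.5% and 55.6% at Knockdown and at 5.4%, 6.3% and 73.5% at Recovery. Cl.9 alone was high at every stage, its 95% Wilson intervals of 66.6 to 75.4%, 51.0 to 60.2% and 68.5 to 77.9% lay far above the others, and R1 and R2 were at 5.9% and 5.1%. Cl.9 had 0.49 times the median relative depth of the clones there. SCIN (chr7:12569577-12570677), which encodes the actin-severing protein scinderin, was at 34.7%, 36.2% and 93.1% at Baseline, 24.2%, 30.0% and 69.8% at Knockdown and 22%, 40.9% and 80.2% at Recovery. Other Cl.9-high promoters came down. A2M (chr12:9116129-9117229), which encodes the protease inhibitor alpha-2-macroglobulin, was at 80.2% in Cl.9 at Baseline against 20.3% and 23.4%, then at 22.5% against 16.4% and 8.6% at Knockdown, and at 31.5% against 17.6% and 13.3% at Recovery. KLRK1 (chr12:10391774-10392874), which encodes the NKG2D receptor of lymphocytes, was at 72.1%, 26.2% and 40.4% in Cl.9 at the 3 stages and at 19.2% or less in the other clones at each. R1 and R2 were at 41.2% and 32.7% at SCIN, 34.8% and 26.0% at A2M and 17.6% and 28.8% at KLRK1, nearer to Cl.3 and Cl.6 than to Cl.9. The relative depth of Cl.9 was 0.67 at SCIN, 0.72 at A2M and 0.64 at KLRK1, and its part in these levels was not tested.

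Among Cl.9-low promoters, FAM83H (chr8:143738134-143739234), a gene needed for enamel formation, had the largest gap. It was at 86.3%, 89.1% and 12.4% in Cl.3, Cl.6 and Cl.9 at Baseline, 63.8%, 54.8% and 2.2% at Knockdown and 76.1%, 66.5% and 3.8% at Recovery. The gap was 73.9, 52.7 and 62.7 points, R1 and R2 were at 64.0% and 64.8%, and Cl.9 had 1.63 times the median relative depth. SPAG8 (chr9:35812172-35813272), a sperm-associated antigen gene, was at 98.3%, 97.6% and 45.9% at Baseline, 84.9%, 87.2% and 35.4% at Knockdown and 93.2%, 94.0% and 39.6% at Recovery, with Cl.9 lowest as in its printed stretch. RBBP8NL (chr20:62427439-62428539) was at 77.5%, 73.3% and 26.4% at Baseline and at 77.4%, 67.1% and 20.7% at Recovery. SAMSN1 (chr21:14658721-14659821) was at 68.0%, 60.7% and 14.0% at Baseline and at 34.5%, 39.2% and 3.6% at Recovery, and its window was itself Cl.9-low. All 4 kept the Cl.9-low position at both later stages. At Baseline R1 and R2 were at 28.0% and 34.5% at RBBP8NL, near Cl.9, and at 68.6% and 75.9% at SPAG8 and 41.9% and 51.8% at SAMSN1, between the clones.

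Cl.6-high promoters were led by SRI (chr7:88226893-88227993), which encodes the calcium-binding protein sorcin. It was at 16.5%, 82.8% and 21.1% in Cl.3, Cl.6 and Cl.9 at Baseline, 8.8%, 53.7% and 6.7% at Knockdown and 11.9%, 73.9% and 13.0% at Recovery. R1 and R2 were at 14.5% and 17.9%, so Cl.6 alone was high. At the other 3 the gap was under 20 points at both later stages. PGBD1, a gene derived from a piggyBac transposase, was at 18.3%, 48.6% and 12.4% at Baseline and 18.8%, 24.8% and 18.7% at Recovery. NCAPG2, a condensin II subunit gene, was at 37.7%, 68.4% and 35.1% at Baseline and 26.8%, 45.3% and 6.3% at Recovery. OR6C65, an olfactory receptor gene, was at 42.9%, 73.3% and 38.7% at Baseline and 39.7%, 52.0% and 18.6% at Recovery. The uncloned R1 and R2 were at 29.7% and 14.7% at PGBD1, 33.3% and 41.3% at NCAPG2 and 54.2% and 50.7% at OR6C65, at each nearer to the lower clones.

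Cl.6-low promoters were led by the protein-coding gene ENSG00000289761 (chr4:41142999-41144099), at 61.7%, 12.8% and 77.8% at Baseline, 32.3%, 3.8% and 38.5% at Knockdown and 49.0%, 4.5% and 56.2% at Recovery. The difference was 28.5 points or more at each stage. OR5AC2 (chr3:98086173-98087273), an olfactory receptor gene, was at 98.1%, 45.7% and 94.9% at Baseline and at 89.8%, 49.5% and 76.3% at Recovery. ANXA1, which encodes a phospholipid-binding annexin, was at 61.1%, 17.9% and 63.2% at Baseline, at 11.1%, 7.7% and 13.9% at Knockdown and at 31.9%, 15.9% and 33.8% at Recovery. TTC22 was at 57.1%, 10.6% and 50.1% at Baseline and at 51.2%, 13.9% and 26.0% at Recovery, where Cl.9 had come down towards Cl.6 and Cl.3 had not. R1 and R2 were at 22.7% and 19.3% at TTC22, 30.2% and 29.9% at ANXA1 and 62.0% and 55.3% at OR5AC2, nearer to Cl.6, and at 53.0% and 52.7% at ENSG00000289761, nearer to the other clones.

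Cl.3-high promoters included NXPE1 (chr11:114559781-114560881) at 74.6%, 16.7% and 13.6% at Baseline, 60.9%, 12.2% and 5.4% at Knockdown and 65.4%, 9.9% and 4.1% at Recovery. The intervals of Cl.3, 66.9 to 81.1%, 51.7 to 69.3% and 57.5 to 72.4%, did not meet those of the other clones at any stage. MICALL1, which acts in endocytic recycling, was at 67%, 30.7% and 27.1% at Baseline and 58.5%, 20.4% and 11.6% at Recovery. SCRN1 was at 77.3%, 44.6% and 45.8% at Baseline and 58.6%, 18.1% and 22.8% at Recovery. DEAF1, which encodes a transcription factor, was at 46.4%, 10.4% and 16.0% at Baseline and at 36.4%, 1.6% and 8.2% at Recovery. In R1 and R2 the levels were 40% and 39.2% at NXPE1, 50.6% and 40.7% at MICALL1, 33.4% and 28.2% at SCRN1 and 17.7% and 18.6% at DEAF1. All 4 stayed in the class at both later stages, whereas 26.8% of the 41 promoters did at each.

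Of the Cl.3-low promoters, SCN1A (chr2:166149114-166150214), which encodes a neuronal sodium channel subunit, kept its position at both later stages and was the only one of the 28 to do so. It was at 13.4%, 47.4% and 66.7% at Baseline, 8.5%, 30.9% and 28.7% at Knockdown and 12.9%, 41.4% and 42.7% at Recovery, with R1 and R2 at 19.6% and 19.8%, near Cl.3. NLRP2B on chromosome X was at 36.1%, 83.3% and 84.6% at Baseline and at 18.9%, 57.1% and 20.3% at Recovery, so Cl.9 moved from the level of Cl.6 to that of Cl.3. MARCOL moved likewise, from 39.5%, 78.3% and 70.7% to 28.8%, 80.6% and 19.6%. OR6M1 was at 29.5%, 61.1% and 79.6% at Baseline and at 27.4%, 41.9% and 22.8% at Recovery. R1 and R2 were at 43.9% and 37.4% at NLRP2B, near Cl.3, at 59.0% and 54.9% at MARCOL and at 47.5% and 46.0% at OR6M1.

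**Figure D5:**
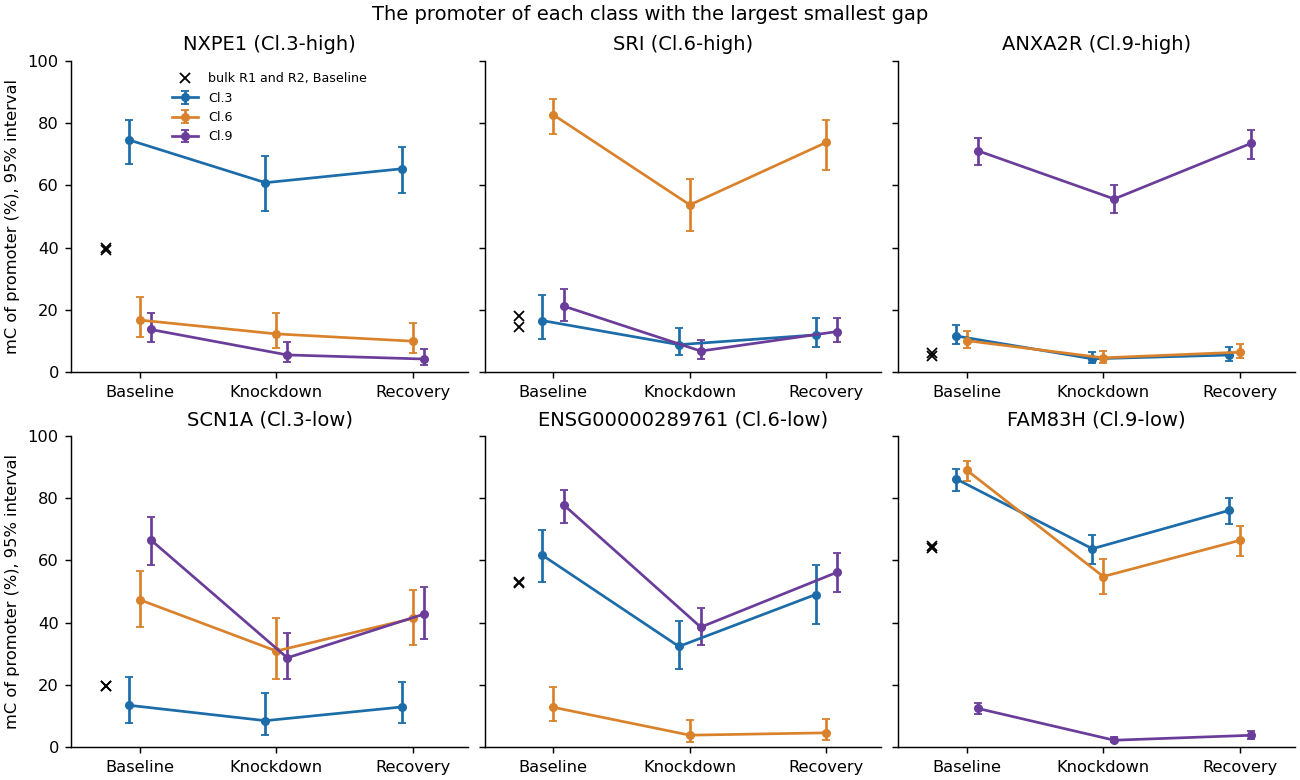
mC (y axis, %) of the promoter in each class with the largest smallest gap over the stages, in Cl.3, Cl.6 and Cl.9 at the 3 stages, with 95% Wilson intervals (counting error only, CpGs on a read taken as independent) as bars and R1 and R2 at Baseline as crosses. ANXA2R was at 55.6 to 73.5% in Cl.9 and at 11.6% or less in the other clones throughout.

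Gene families differed in how often their promoters set the clones apart, and also in their Baseline level. The clustered protocadherins, cell-surface proteins of which a neuron expresses a chance few through promoter choice, led the lists. Of 50 measured promoters, 17 (34.0%) had a Baseline range of at least 20 points, against 6.21% of all promoters, with a median range of 14.8 against 6.13 points. Their median Baseline mC was 68.2%, and among all promoters with a mean of 60 to 80% the called share was 17.8%. No protocadherin promoter of 52 measured differed by 20 points between R1 and R2. The called members were 5 of 14 in the alpha, 5 of 16 in the beta and 7 of 20 in the gamma cluster, which are neighbours on chromosome 5 and so not independent. Of the 17, 12 kept the difference at Knockdown and 14 at Recovery, against 40.8% and 44.2% of all called promoters and 58.6% and 60.8% of those with a mean Baseline mC of 60 to 80%.

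Cl.9 was the lowest clone at 12 of these 17 protocadherin promoters, and Cl.6 was the highest at 11. That order was not particular to them. Cl.9 was lowest at 30 of 47 called olfactory receptor and 21 of 28 called zinc finger promoters, and Cl.6 highest at 14 and 20. Over all promoters, Cl.3 above Cl.9 by 20 points was kept in 69.0% at Knockdown and 69.5% at Recovery. Cl.9 above Cl.3 was kept in 10.3% and 15.5%. The kept shares of the lists were not matched for this direction. PCDHB12 (chr5:141207697-141208797) was at 77.4%, 85.5% and 40.2% in Cl.3, Cl.6 and Cl.9 at Baseline, 55.6%, 68.6% and 21.4% at Knockdown and 73.8%, 73.8% and 33.2% at Recovery. PCDHB3 was at 84.5%, 91.9% and 54.7% at Baseline and at 72.5%, 75.9% and 23.5% at Recovery. The neighbour of PCDHB12, PCDHB13, had another order, with 20.9%, 55.8% and 25.7% at Baseline and 18.6%, 33.9% and 8.0% at Recovery. PCDHGB5 was at 68.8%, 96.7% and 69.6% at Baseline and at 64.2%, 87.9% and 45.9% at Recovery. PCDHAC2 was the reverse of most members, at 13.5%, 13.5% and 36.1% at Baseline and at 5.0%, 7.3% and 28.8% at Recovery. Promoters a few kilobases apart thus had different odd clones.

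Olfactory receptors were called at 47 of 193 promoters (24.4%), with a median range of 12.5 points, and 24 of the 47 kept the difference at Recovery. Their median Baseline mC was 53.7%. Among all promoters with a mean of 40 to 60% the called share was 21.1%, of which 42.8% were kept at Recovery. Neither share of the olfactory receptors stood far from that of promoters near the median level of the list. Single members of a list were not matched by level. Zinc finger genes of chromosome 19, many of which repress transposable elements, were called at 28 of 225 (12.4%), below that 21.1% at a median Baseline mC of 48.3%, and 16 of the 28 kept it, to be read against the same 42.8%. ZNF28 and ZNF468 had the same reads in every library and are counted as 2 of the 28. ZNF432 was at 86.7%, 88.0% and 58.2% at Baseline and 50.6%, 48.6% and 22% at Recovery, while ZNF30 went from 46.5%, 57.8% and 84.3% to 41.8%, 60.5% and 58.8%. Cytosolic ribosomal genes, active in every cell, were called at 1 of 84 (RPL24) and the methylation machinery, to which UHRF1 and DNMT1 belong, at 0 of 32. Their median Baseline mC was 15.9% and 18.4%. Of all promoters with a mean under 20%, 0.677% were called, so 0 of 32 does not set the machinery apart. The DNMT1 region at its outermost annotated start was at 68.6%, 74.5% and 58.7% at Baseline, and whether that start is used was not tested.

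Imprinted genes were called at 4 of 35 (ERLIN2, GRB10, KCNQ1, MEST), and 0 of the 4 kept the difference later, against 40.8% and 44.2% of all called promoters, a contrast that rests on 4 promoters. HOX genes were called at 3 of 36. The shares of the imprinted (11.4%), HOX (8.33%) and colon epithelium lists (10.3%) lay above the 6.21% of all promoters and below the 17.8% of promoters with a mean of 60 to 80%, and the median Baseline mC of these lists was 64.4%, 69.2% and 78.0%. HOXA3 (chr7:27152483-27153583), a patterning transcription factor gene, was at 26.8%, 40.9% and 93.1% at Baseline, 7.0%, 18.8% and 65.1% at Knockdown and 14.1%, 23.8% and 85.3% at Recovery, so Cl.9 stayed highest, at a relative depth of 0.64. HOXA10 did not follow it, with 55.9%, 51.4% and 77.8% at Baseline and 50.2%, 45.1% and 56.7% at Recovery. Of the colon epithelium genes 4 of 39 were called, among them ELF3, an epithelial ETS factor gene, at 70.2%, 67.7% and 25.1% at Baseline and 65.5%, 45.6% and 11.7% at Recovery, with R1 and R2 at 28.0% and 23.9%, near Cl.9. CDX2, the intestinal homeobox gene, was at 32.6%, 50.3% and 30.2% at Baseline and at 33.2%, 24.4% and 27.4% at Recovery.

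Germline and cancer-testis genes were called at 3 of 50 (6%), against 6.21% of all promoters. Genes often silenced in colorectal cancer were called at 2 of 56 (3.57%, CDH4 and TMEFF2). The median Baseline mC of the 2 lists was 90.9% and 84.6%. Among all promoters with a mean of 80 to 100% the called share was 1.89%, so both lists lay above promoters of like level, on few calls. At Knockdown, 46.4% of the second list had a range of 20 points, against 27.7% of all promoters, whose median Baseline mC was 38.5%. That share was not particular to the list. Shares at Knockdown ran from 5.95% (cytosolic ribosomal) to 72% (clustered protocadherins), with olfactory receptors at 48.7% and colon epithelium at 51.3%. TMEFF2 (chr2:192194833-192195933) was at 28.6%, 64.1% and 54.1% at Baseline, 23.1%, 64.7% and 31.4% at Knockdown and 18.8%, 54.1% and 31.4% at Recovery. Cl.6 was highest and Cl.3 lowest there at each stage.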

How the data were processed

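Whole-genome bisulfite sequencing of HCT116 was used, where unmethylated cytosines are read as T. Reads were aligned to hg38 with Meth10X by the authors, whose deposited tables hold, per CpG, unnormalized counts of methylated reads and of all reads in each library, with no coverage filter found in the tables. The handling of duplicates, variants and reads that match several places was not given in the sources used here. The domain lists (start, end and class, PMDs called by the authors with MethylSeekR) were used for the clones, and the submitters' processing notes also name bedtools 2.25.0. The bulk domain lists were not used.

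Of 29175448 CpGs on chromosomes 1 to 22 and X, 20801321 (71.3%) had at least 5 reads in all 9 clone libraries. The bulk pair had a filter of its own. Windows of 10 kb needed 10 CpGs and 100 reads in every library, promoters (GENCODE release 44) needed 5 CpGs and 50 reads. Reads were summed over the CpGs of a region, so a read covering several CpGs was counted at each. With 1 library per group nothing was tested, so counts of calls are differences of at least 20 points between libraries. Intervals are 95% Wilson intervals on these summed counts, which treat CpGs on a read as independent and are therefore too narrow. The calling step was checked on simulated counts with known differences, drawn as if CpGs on a read were independent, so that check does not cover this point. Relative depth was a region's reads over the library's total, divided by the median of the 3 clones at Baseline. In each class the 4 promoters with the largest Baseline gap, the 1 with the largest smallest gap over the stages, up to 3 members of each gene list that fell in a class, UHRF1 and DNMT1 were named, with the 2 longest runs of windows per class. Other list members were named after their values were seen. The members and the gene lists were chosen with earlier results of these data known. Alternatives covered thresholds, read and region minimums, weighting, centring, thinning, region size, Fisher's exact test and leaving out each clone. Python 3.11.15, numpy 2.4.6, scipy 1.17.1 and pandas 2.3.3 were used.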

Additional observations from a re-analysis of the deposited data

Results flagged for a closer look

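At 2 of the named promoters, clones moved in opposite directions by more than their 95% Wilson intervals. The difference between the clones was not tested, since each clone has 1 library per stage. The intervals treat CpGs on a read as independent and are too narrow, so these flags are weaker than they look. At PGBD1 the mC of Cl.9 rose by 8.25 points from Baseline (12.4%, interval 9.6 to 15.8%) to Knockdown (20.6%, 17.1 to 24.7%), while that of Cl.6 went from 48.6% to 26.0%. Cl.3 went from 18.3% (14.7 to 22.7%) to 27.1% (22.4 to 32.5%), so Cl.6 was the clone that moved the other way. At ZNF233 the mC of Cl.3 rose by 14.8 points from Baseline (42.5%, 35.3 to 50.1%) to Recovery (57.3%, 50.3 to 64.0%), while that of Cl.9 went from 66.3% to 46.8%. The relative depth of Cl.9 was 0.68 times the median of the clones at PGBD1 and 0.75 times at ZNF233, and its part in these values was not tested.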

How the results depend on the processing

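No paired analysis was possible because the comparisons are between single clones within a stage, with 1 library each. The share of windows with a range of at least 20 points (4.41%, 54.6% and 21.7% at Baseline, Knockdown and Recovery), the kept shares (60.6% and 70.6% at Knockdown and Recovery) and the same 5 values for promoters (6.21%, 27.7%, 18.0%, 40.8% and 44.2%) are given below in that order, wherever they moved. The sign of single differences was not compared, but the order of the stages changed. The called share of windows was lower at Knockdown than at Baseline without Cl.9 (1.45% against 1.49%) and with level-matched centring (3.62% against 3.72%), and that of promoters was lower at Recovery than at Baseline without Cl.9 (1.30% against 1.68%) and lower at both later stages with level-matched centring (4.90% at Baseline). Windows were called less often at Knockdown than at Recovery under both centrings and without Cl.9.

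At 10 points the window values were 22.6%, 94.2%, 81.0%, 75.1% and 79.5% and the promoter values 28.9%, 52.0%, 48.7%, 47.4% and 50.4%. At 30 points they were 1.30%, 7.61%, 6.16%, 57.4% and 71.7%, and 1.32%, 8.32%, 4.47%, 35.4% and 38.4%. With library medians subtracted, windows had 4.35% at Knockdown and 5.65% at Recovery with 72.0% kept at Recovery, and promoters 10.3%, 6.50%, 25.1% and 30.7%. Level-matched centring, chosen after seeing the data, gave windows 3.62%, 5.61%, 58.7% and 71.7% and promoters 3.39%, 4.26%, 21.7% and 29.1%, from Knockdown on. The range shares at Knockdown and Recovery thus depend on centring, and the kept shares of windows move by 2 points or less under it.

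The kept shares of windows were 61.9% and 72.2% with 1 read per CpG, 59.3% and 69.3% with 10 reads, and 59.6% and 69.1% with 3 CpGs and no read minimum. At Recovery they were 72.3% unweighted and 69.7% with libraries thinned to equal reads. Windows of 2 kb had 10.1% called at Baseline and kept 51.4% and 57.6%, and windows of 100 kb kept 70.2% and 81.9%. Promoters kept 34.7% and 38.7% with 1 read, 37.3% at Knockdown with 10 reads, and 46.7% and 51.0% when taken as 500 bp on either side of the start. Unweighted, promoters had 3.94% called at Baseline and kept 45.1% and 51.7%.

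Leaving out 1 clone gave ranges of 1.49 to 2.58%, 1.45 to 52.6% and 2.04 to 18.0% of windows called and 54.4 to 65.4% and 64.0 to 78.6% kept. For promoters these were 1.68 to 3.71%, 2.16 to 25.4% and 1.30 to 14.7%, with 24.1 to 52.5% and 23 to 54.3% kept. The lowest called shares were those without Cl.9. Requiring Fisher's exact test changed no count. Leaving out regions of uneven relative depth left 10354 of 17352 promoters, with 5.27% called at Baseline and 45.6% kept at Recovery. Depth of 11 to 21 reads per CpG limits single CpGs and promoters with few CpGs most, and counting intervals do not cover differences between cultures of one clone.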
